A study of Mus musculus with 6 samples.

Results

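Enteroendocrine cells are the scattered hormone-secreting cells of the gut epithelium. The 10 genes described here encode their granule proteins (Chga, Chgb and Scg2), peptide hormones (Pyy, Gcg, Insl5, Sst, Cck and Nts) and the enzyme that starts serotonin synthesis in the gut (Tph1). They were chosen by name, as all probe sets whose platform annotation gives 1 of these 10 symbols. Each gene had 1 probe set, and all 10 passed the filter on dim signals, against 12437 of 18194 named genes over the whole array. Colonic mucosa of untreated C57BL/6 mice was profiled on 6 Affymetrix 3' arrays lettered A to C within each genotype, of which 3 carried the label p38a knockout and 3 the label wild type. The cell type given is intestinal epithelial cells, and the question is how expression in this tissue differs by p38a genotype. The sources used here name no allele, Cre driver or age, nor the number of animals per sample. Whether each array stands for its own animal is not stated, and the p-values reflect only the variation among these arrays, part or all of which may be technical.

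In the colon, L cells release glucagon-like peptide from the Gcg precursor together with peptide YY and the relaxin-family peptide INSL5, which act on appetite, motility and glucose control. Enterochromaffin cells hold most of the body's serotonin, made through TPH1, and are rich in chromogranins. Chromogranins and secretogranin are acidic proteins that help condense hormones into dense-core granules, and they are shared by many endocrine cell types. Somatostatin of D cells restrains the other endocrine cells. Cholecystokinin and neurotensin are better known from the small intestine. In bulk mucosa, fewer cells of a type and less RNA per cell cannot be told apart.

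The promoters are shown first because several granule and neuropeptide genes are textbook carriers of the cAMP response element, the sequence bound by CREB-family factors. The letters TGACGTCA, the full palindrome, stood in the 300 bases around the annotated start (250 before and 50 after) of Chgb, Sst and Scg2, that is, in 3 of 10 member genes. Over 27025 genes with a promoter sequence, 2.03% held them. Its shorter core, TGACG or on the other strand CGTCA, which lies inside the full element, stood in 7 of 10 members, against 23% of all genes. The other 3 members, Gcg, Pyy and Insl5, held neither in that window, and bases further from the start were not searched. Below are 60 bases of the coding strand per gene, 5′ to 3′, from RefSeq on GRCm38.p6, with each match in capitals. They lie at chr12:102554871-102554930 (plus strand, Chga), chr2:132781544-132781603 (plus, Chgb), chr7:46672540-46672599 (minus, the first of 2 Tph1 starts) and chr10:102490551-102490610 (minus, Nts). The others lie at chr16:23890859-23890918 (minus, Sst), chr1:79440061-79440120 (minus, Scg2) and chr9:121495708-121495767 (minus, Cck). The match began 44 bases before the start in Chga, 72 in Chgb, 36 in Tph1, 166 in Nts, 48 in Sst, 68 in Scg2 and 47 in Cck.
Chga: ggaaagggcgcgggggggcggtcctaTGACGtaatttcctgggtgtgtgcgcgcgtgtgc
Chgb: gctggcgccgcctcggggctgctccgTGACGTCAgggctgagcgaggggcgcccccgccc
Tph1: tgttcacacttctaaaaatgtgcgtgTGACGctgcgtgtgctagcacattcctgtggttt
Nts: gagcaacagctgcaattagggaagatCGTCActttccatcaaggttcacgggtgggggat
Sst: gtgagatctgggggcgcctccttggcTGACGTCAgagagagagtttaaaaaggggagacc
Scg2: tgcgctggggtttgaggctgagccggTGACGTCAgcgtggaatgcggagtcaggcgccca
Cck: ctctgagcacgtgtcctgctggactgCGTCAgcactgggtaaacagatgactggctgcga

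Levels are log2(signal + 16) after quantile normalization over all probe sets, and differences are the mean of the arrays labelled knockout minus that of wild type on this scale, which understates the change of dim genes. The epithelial identity of the samples was clear: all 15 epithelial markers on the array were above the filter, and Epcam read 13.17 to 13.33. The targeted gene was not lower under the knockout label. The brightest probe set of Mapk14, which encodes p38a, read 9.72, 9.91 and 9.73 in the arrays labelled knockout and 9.31, 9.44 and 9.37 in wild type, and whether it lies in the deleted part is not known here. Of its other 5 probe sets 4 were tested, and none passed adjustment. Arrays are named by their labels throughout; an exchange of the labels would turn the sign of every difference, and this was not tested. RNA quality separated the arrays by label. The Gapdh 3' to 5' ratio was 0.859 to 0.954 under the knockout label. The wild-type arrays read 1.10 (A), 0.989 (B) and 1.45 (C), so that C stood furthest apart. Deposited signals separated too, with trimmed means of 192 to 222 under the knockout label against 117 to 188, the lowest being wild type C. Array medians were 34.8 to 37.0 against 27.0 to 29.9. These measures cannot be told apart from the genotype label here.

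Hormone and granule genes did not move together by genotype label. Chga, Chgb, Tph1 and Nts had mean differences from -1.30 to -0.98, while Gcg, Pyy, Insl5, Sst, Cck and Scg2 lay between -0.20 and 0.47. No probe set passed an adjusted p of 0.05 in limma, neither among the 10 members nor among all 27002 tested (0%). At an unadjusted p under 0.05, 1 member was lower (Nts), where 1.82% of all probe sets were, and 1 was higher (Scg2), where 1.7% were. That count of 2 was 0 without knockout A (beside 1.92% of all probe sets), knockout B (2.71%) or wild type C (3.06%). It was 1 without knockout C (2.69%) and 5 without wild type B, where 16.1% of all probe sets reached that p. The wild-type mean of Scg2, 5.06, lay under the filter level of 5.10. Scg2 thus passed only through its mean in the arrays labelled knockout, so its count supports nothing. In 1 member, again Scg2, all arrays labelled knockout lay above all wild-type arrays, a pattern of 4.75% of all probe sets, and in none did they lie below, a pattern of 4%. The median difference over the members was -0.10, against 0.02 over all probe sets tested. The larger feature of these genes was an opposition between arrays: wild type C had the highest level of Chga, Chgb, Tph1 and Nts and the lowest of Insl5, Gcg, Pyy, Cck and Scg2.

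**Figure D1:**
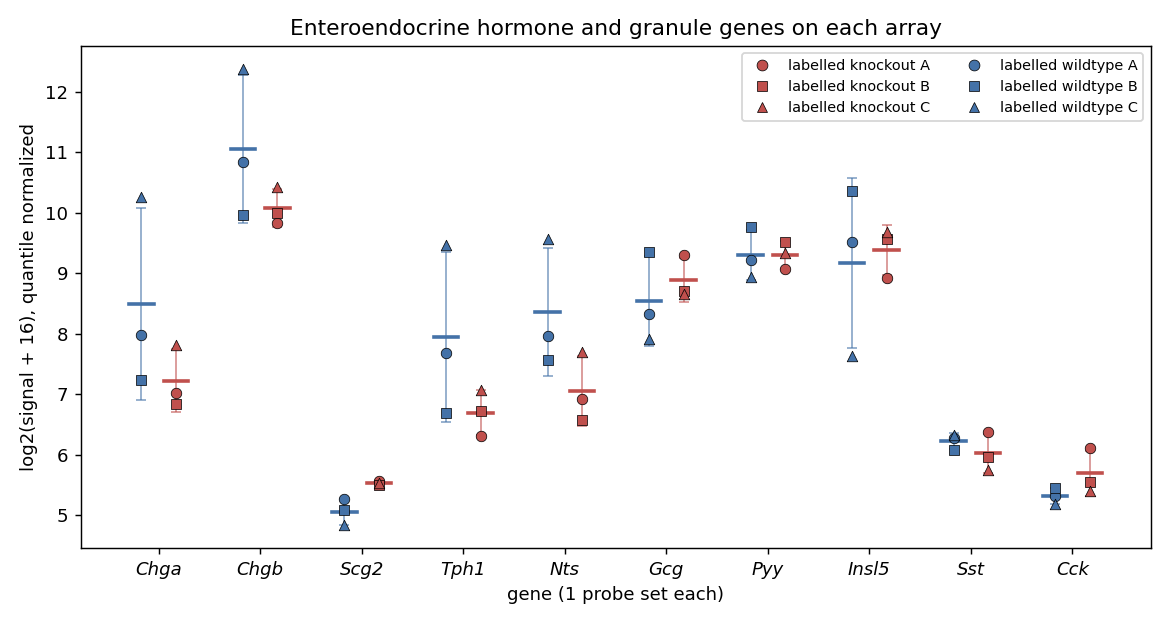
Level of each of the 10 genes, as log2(signal + 16) after quantile normalization, on the 3 arrays labelled knockout (red) and the 3 wild-type arrays (blue). Thick bars are group means, thin bars are SDs (n = 3), and marker shapes give the array letter. The wild-type triangle (array C) is the highest point for Chga, Chgb, Tph1 and Nts and the lowest for Gcg, Pyy, Insl5, Cck and Scg2.

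Chromogranin A is the most widely used marker of neuroendocrine cells. Chga read 7.02, 6.83 and 7.81 in the arrays labelled knockout and 7.97, 7.23 and 10.26 in wild type, here and below in the order A, B, C. The groups overlapped, since wild type B lay below knockout C, and the wild-type range of 3.03 was larger than the difference between the group means. That difference was -1.27 (SE 0.68; 7.22 ± 0.52 against 8.49 ± 1.58, SD, n = 3 each; limma adjusted p = 0.915, unadjusted 0.0957), a 2.41-fold lower mean with a 95% interval of the log2 difference from -2.81 to 0.28. Without wild type C it was -0.39, and against wild type B alone -0.01. On the signals as deposited, Chga stood at 139, 110 and 245 in the arrays labelled knockout and at 189, 140 and 785 in wild type.

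Chromogranin B, encoded by Chgb, was the brightest of the 10 probe sets, at the 96.0th percentile of all probe sets on the array. It read 9.82, 9.99 and 10.42 in the arrays labelled knockout and 10.84, 9.96 and 12.38 in wild type. The order of the arrays was close to that of Chga, with wild type C and then wild type A at the top, followed by knockout C. The difference was -0.98 (SE 0.51; limma adjusted p = 0.915, unadjusted 0.0892), with an interval from -2.15 to 0.19. It was -0.32 without wild type C and 0.11 against wild type B alone, so that its direction rested on wild type A and C.

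Scg2, the secretogranin that is the precursor of secretoneurin, behaved otherwise. It was dim, at the 44.7th percentile, and its wild-type mean of 5.06 lay under the filter level of 5.10, so that it was tested only through the group where it was high. It read 5.56, 5.50 and 5.52 in the arrays labelled knockout and 5.26, 5.08 and 4.83 in wild type, with no overlap. The difference was 0.47 (SE 0.20; limma adjusted p = 0.915, unadjusted 0.0431), with an interval from 0.02 to 0.92, and without the filter the unadjusted p in limma was 0.0560. It stayed between 0.37 and 0.58 when any single array was left out, and was 0.47 against wild type B alone. On the deposited signals it was 0.66, where the median of all probe sets was 0.40, and the signals themselves were 32.8 to 35.0 against 11.7 to 19.3, close to the bottom of the scale.

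Tryptophan hydroxylase, the Tph1 product, makes the serotonin precursor in enterochromaffin cells. Tph1 read 6.31, 6.71 and 7.06 in the arrays labelled knockout and 7.69, 6.69 and 9.46 in wild type. Wild type A and C were above all arrays labelled knockout, while wild type B lay among them. The difference was -1.25 (SE 0.60; limma adjusted p = 0.915, unadjusted 0.0678), 2.38-fold on this scale, with an interval from -2.62 to 0.11. It was -0.51 without wild type C and 0.01 against wild type B alone. Mast cells also make serotonin through Tph1. Of the 10 mast cell markers on the array 5 passed the filter, Hdc, Fcer1a and Tpsb2 did not, and the summed linear signal of the list was 542 to 810 in the arrays labelled knockout and 591 to 997 in wild type. In wild type C Mcpt2 (8.87 against 6.66 to 8.11 elsewhere), Mcpt1 and Cpa3 were at their highest, Kit was at its lowest (7.38 against 8.12 to 8.67), and Cma1 lay inside the range of the others. Their part in the Tph1 values was not tested.

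Neurotensin, the Nts product, is a peptide that slows motility and promotes fat uptake. Nts had the smallest p of the 10 genes and ranked 536th of 27002 probe sets. It read 6.91, 6.57 and 7.70 in the arrays labelled knockout and 7.95, 7.56 and 9.56 in wild type, so that the groups overlapped only through knockout C and wild type B. The difference was -1.30 (SE 0.51; 7.06 ± 0.58 against 8.36 ± 1.06, SD, n = 3 each; limma adjusted p = 0.915, unadjusted 0.0311), 2.46-fold lower. Nts kept its direction in every setting tried, at -0.72 without wild type C and -0.53 against wild type B alone. Its smallest size was -0.23, with the Gapdh ratio as a covariate.

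The L cell hormones had differences between -0.01 and 0.35, and the sign of all 3 depended on the setting. Gcg, which encodes proglucagon, read 9.30, 8.71 and 8.65 in the arrays labelled knockout and 8.33, 9.36 and 7.92 in wild type. Wild type B was the highest of the 6 arrays and wild type C the lowest. The difference was 0.35 (SE 0.36; limma adjusted p = 0.915), with an interval from -0.47 to 1.17, and it was 0.05 without wild type C and -0.48 against wild type B alone.

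Wild type B, where all 3 L cell hormones peaked, also carried transcripts of pancreatic acinar cells. Prss2, a trypsinogen gene, read 7.67 there and at most 5.23 elsewhere, and the elastase gene Cela2a read 7.71 against at most 5.01. Of 15 acinar markers on the array 6 passed the filter, and the summed signal of the list was 3519 to 5487 in the arrays labelled knockout and 5506 to 6786 in wild type, with 6786 in wild type B. Most of that sum came from Sycn and Cela1, which were bright on every array and did not single out wild type B. Sycn read 10.73, 10.70 and 11.56 in the arrays labelled knockout and 11.96, 11.93 and 11.91 in wild type (limma adjusted p = 0.915, unadjusted 0.00259). Cela1 read 10.81 in wild type B and 10.44 to 11.16 elsewhere. Pancreatic islets also make Gcg, Pyy and Sst, and the islet gene Ins2 was below the filter and read 5.20 in wild type B. The part of pancreatic RNA in the Gcg, Pyy and Insl5 values was not tested.

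Peptide YY, the ileal and colonic brake on appetite and motility, was nearly level between the groups. Pyy read 9.06, 9.51 and 9.33 in the arrays labelled knockout and 9.22, 9.76 and 8.94 in wild type, with a range of 0.82 over all 6 arrays. The difference was -0.01 (SE 0.24; limma adjusted p = 0.997). Its interval ran from -0.55 to 0.54. Scaling decided its sign, since it was 0.28 (SE 0.36) on values centred on array medians and 0.52 (SE 0.38) on the deposited signals, beside medians of all probe sets of 0.16 and 0.40.

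Insl5, the hormone of distal colonic L cells that signals through Rxfp4, had the widest spread of the 3. It read 8.92, 9.57 and 9.68 in the arrays labelled knockout and 9.52, 10.36 and 7.63 in wild type, so that wild type held both extremes. On the deposited signals these were 627, 832 and 945 against 574, 1443 and 126, an 11.4-fold span over the 6 arrays. The difference was 0.22 (SE 0.59; limma adjusted p = 0.958), with an interval from -1.13 to 1.58. Without wild type C it turned to -0.55, and against wild type B alone to -0.97.

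Sst and Cck were dim and differed little between the groups. Somatostatin mRNA read 6.38, 5.95 and 5.74 in the arrays labelled knockout and 6.27, 6.08 and 6.33 in wild type, a difference of -0.20 (SE 0.22; limma adjusted p = 0.915) that turned to 0.13 on the deposited signals. The wild-type arrays lay within 0.24 of each other, inside the range of the arrays labelled knockout. Cck read 6.12, 5.55 and 5.41 against 5.32, 5.46 and 5.19, and its difference of 0.37 (SE 0.24; limma adjusted p = 0.915) was 0.15 without knockout A, its highest array. Knockout A was also the highest array for Sst, and it had the highest summed signal of 10 smooth muscle markers, 781 against 219 to 426 elsewhere. The part of that tissue in the Sst and Cck values was not tested. Enteric neurons make both peptides. Of 17 neuronal markers on the array 12 were below the filter, among them Uchl1, Elavl4, Prph and Chat. The summed signal of those 17 markers was 290 to 334 in the arrays labelled knockout and 281 to 325 in wild type, and the part of neurons in the Sst and Cck values was not tested.

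**Figure D2:**
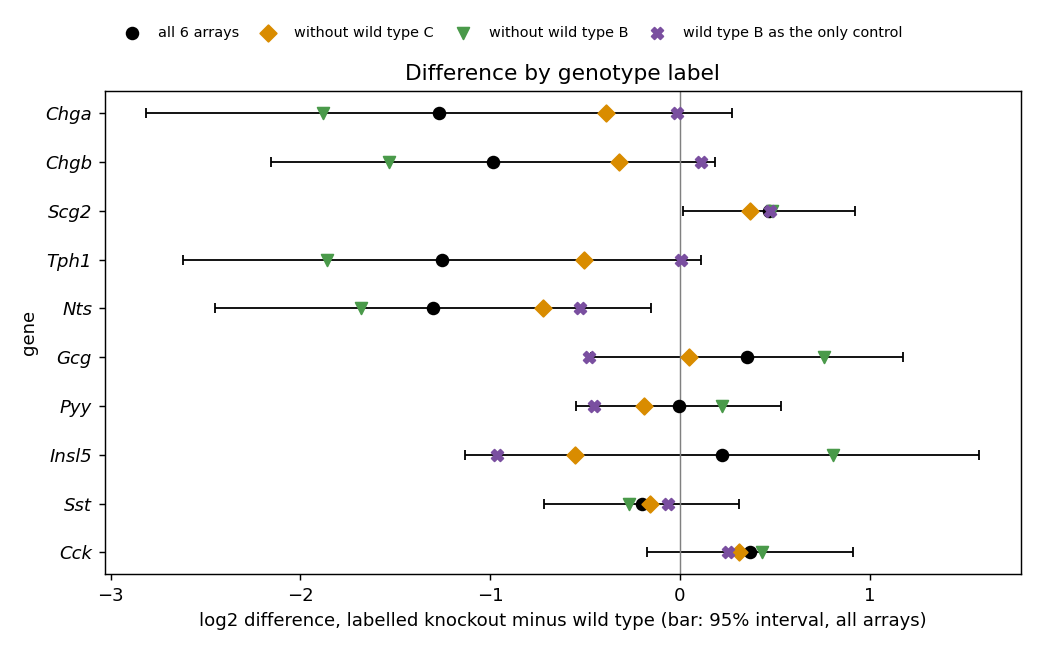
Log2 difference, arrays labelled knockout minus wild type, for each gene with all 6 arrays (black, with the 95% interval from limma), without wild type C (orange), without wild type B (green) and against wild type B alone (purple). Without wild type C, Chga, Chgb, Tph1 and Nts shrink to between -0.72 and -0.32, and against wild type B alone Chga and Tph1 lie at -0.01 and 0.01.

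Wild type C lay above the mean of the other 5 arrays by 2.89 for Chga, 2.57 for Tph1, 2.22 for Nts and 2.17 for Chgb. Over all genes tested, 0.0161%, 0.0402%, 0.0563% and 0.0885% lay at least as far above in that array. For Insl5 wild type C lay below the other 5 by 1.98 (as -1.98, a distance reached by 0.161% of genes), and for Gcg and Pyy the values were -0.95 and -0.44, reached by 4.96% and 21.9% of genes. The range of Pyy over the 6 arrays, 0.82, was reached by 40.3% of genes. As a mean over Chga, Chgb, Tph1 and Nts, the departure from each gene's own 6-array mean was 2.05 in wild type C, 0.25 in A and -0.50 in B, against -0.85, -0.84 and -0.12 in A, B and C labelled knockout. Over Gcg, Pyy and Insl5 it was -0.94 in wild type C, -0.07 in A and 0.73 in B, against -0.01, 0.17 and 0.12. Grouping these genes was done after their values were seen, and no test was made of it. Wild type A lay above every array labelled knockout for Chga, Chgb, Tph1 and Nts, while wild type B did so for Gcg, Pyy and Insl5.

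**Figure D3:**
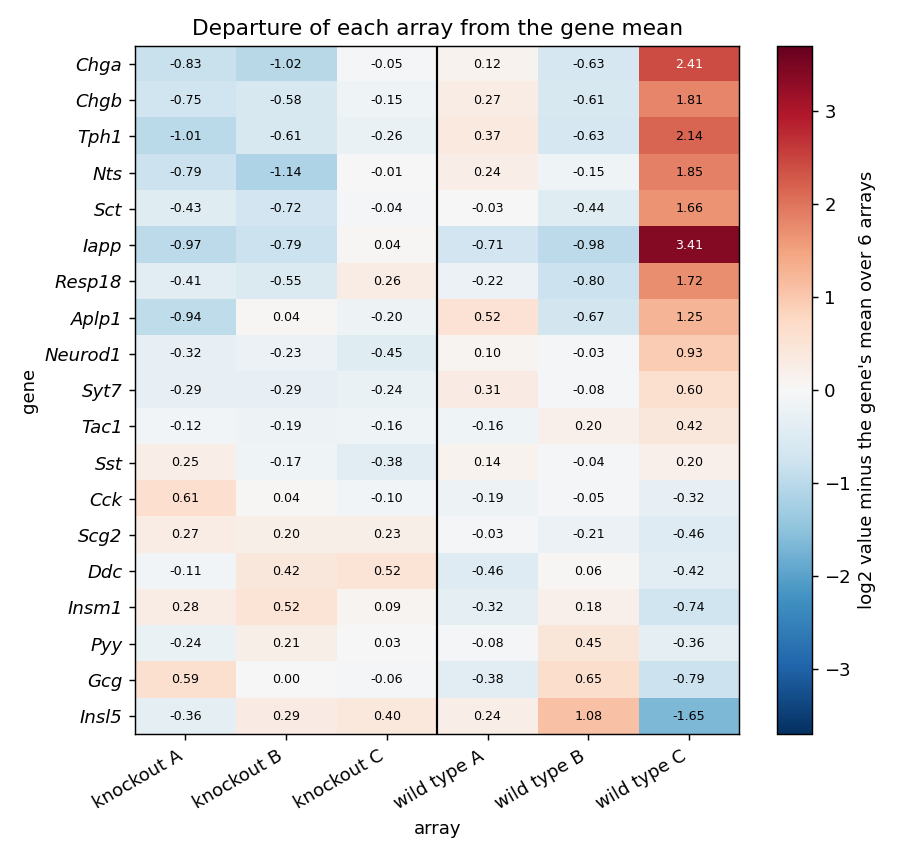
Departure of each array from the gene's own mean over the 6 arrays, in log2 units, for the 10 genes and 9 related genes, with the printed value in each cell. The wild type C column is red for Chga, Chgb, Tph1, Nts, Sct, Iapp and Resp18 and blue for Pyy, Gcg and Insl5. It is also red, less strongly, for Aplp1, Neurod1, Syt7, Tac1 and Sst, and blue for Insm1, Scg2, Ddc and Cck.

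Likeness to Chga was measured as the root mean square difference between the log2 profiles over the 6 arrays, after each gene's mean was subtracted. Among 12435 other genes the 5 most like Chga were Tph1 (0.25), Nts (0.31), Chgb (0.31), Sct (0.38) and Resp18 (0.43), in that order. Sct encodes the hormone secretin and Resp18 a granule-associated endocrine protein. Insl5 was at the other end, ranked 12404th with 1.90, and Gcg was 12002nd. Sst, with 1.10, ranked 4382nd, and Pyy, Cck and Scg2 ranked 9666th to 10116th. All of these profiles share 6 arrays, of which wild type C weighs most. Over the 5 arrays without it the closest genes were Efna1, Agrn, Syn1, 3300002A11Rik and Sipa1l3, none of them among the members or the lists named here. Chgb then ranked 38th, Sct 55th, Nts 57th, Tph1 164th and Resp18 938th, while Insl5 ranked 9753rd and Gcg 12045th. Of the 10 genes, Chga, Chgb, Tph1 and Nts held the shorter promoter core in the 300 bases searched, as did the dim genes Sst, Scg2 and Cck. Gcg, Pyy and Insl5 did not hold it in that window, and as no bases outside it were searched, they cannot be said to lack it. They were lowest in wild type C and highest in wild type B, but Scg2 and Cck, which held it, were also lowest in wild type C. This is a description of 10 genes grouped after their values were seen. A link between the letters and the profiles was not tested.

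Wild type C also stood apart in RNA quality and in some genes of position along the gut. The Gapdh ratio was highest in wild type C, with A next, the 2 arrays with the highest Chga. Below them the orders parted: knockout C, next in Chga at 7.81, had the lowest ratio, 0.859. Wild type B, next in ratio at 0.989, read 7.23 for Chga. With the Gapdh ratio as a covariate the differences were 0.44 for Chga, 0.38 for Chgb, 0.34 for Tph1, -0.23 for Nts, -0.40 for Gcg and -1.45 for Insl5. The limma unadjusted p for Insl5 was 0.00307, and no member passed adjustment. Of the 6 genes all except Nts had the opposite sign without the covariate. Every wild-type ratio lay above every ratio under the knockout label, so this fit cannot tell genotype label from RNA quality. Of 8 tested Hox genes, which mark position along the gut, 3 were highest in wild type C: Hoxb4 (7.66 against 5.48 to 6.48 elsewhere), Hoxb6 (8.74 against 6.40 to 7.77) and Hoxb9 (8.55 against 7.80 to 8.24). In that array 2 were lowest, Hoxa10 (7.83 against 8.76 to 9.49) and Hoxa13 (5.13 against 5.73 to 6.06). Hoxa11, Hoxb13 and Hoxd13 lay inside the range of the others. Of 9 small intestine markers on the array 4 were tested, 2 higher and 2 lower. These were Fabp2 at -0.62 (SE 0.16, limma adjusted p = 0.915, unadjusted 0.00368), Slc10a2 at 1.35, Fabp6 at -0.74 and Apob at 0.17. Fabp6 read 9.65 in wild type C and 6.50 to 9.21 elsewhere. The summed signal of the list, most of it from Fabp2, was 4284 to 4965 in the arrays labelled knockout and 5137 to 7632 in wild type. The part of RNA quality and of the sampled stretch of colon in these profiles was not tested further.

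**Figure D4:**
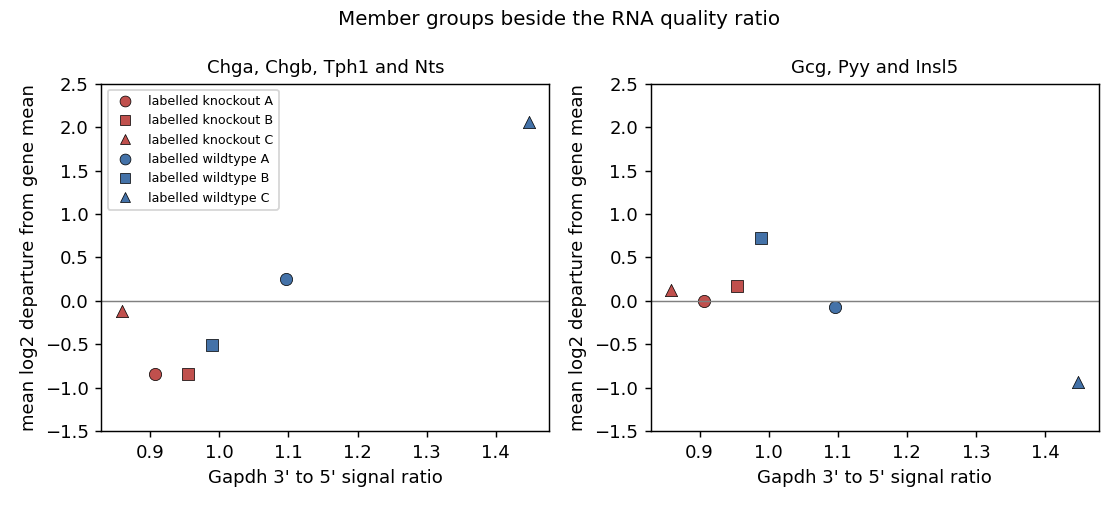
Mean log2 departure from the gene mean for Chga, Chgb, Tph1 and Nts (left) and for Gcg, Pyy and Insl5 (right), by array, against the 3' over 5' ratio of the Gapdh control probe sets, a measure that is larger in degraded RNA. Wild type C, at a ratio of 1.45, is the highest point on the left (2.05) and the lowest on the right (-0.94).

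The few other gut hormone genes above the filter had negative differences, none of them past the threshold. Of 20 further hormone genes listed, 17 were on the array and 5 above the filter. All 5 had a lower mean in the arrays labelled knockout, as did 46.4% of all probe sets. The median of the 5 was -0.67, or -0.17 over 4 genes without wild type C. None passed adjustment in limma, and none had an unadjusted p under 0.05. Secretin mRNA (Sct) read 7.43, 7.15 and 7.83 in the arrays labelled knockout and 7.84, 7.42 and 9.52 in wild type, a difference of -0.79 (SE 0.49) that was -0.16 without wild type C. Iapp, which encodes amylin, read 9.16 in wild type C and 4.77 to 5.79 on the other 5 arrays, so that its difference of -1.15 (SE 1.01) rested on 1 array, without which Iapp fell under the filter. Tac1, the substance P precursor of enterochromaffin cells and neurons, stood at -0.31, or -0.17 without wild type C, and Adm, which encodes adrenomedullin, at -0.67. Ppy was nearly level, at -0.04 (SE 0.22). Ghrl, Gip and Gast were below the filter. Amylin and Sst are also products of pancreatic islets. Ins2 was below the filter, at 5.20 to 5.55 in wild type and 4.38 to 5.02 in the arrays labelled knockout. Of 8 islet markers on the array 3 passed the filter, namely Iapp, Ppy and Pdx1, of which Iapp and Pdx1 also stand in the hormone and transcription factor lists. The summed signal of the 8 was 113 to 140 in the arrays labelled knockout and 139 to 669 in wild type, and 669 was that of wild type C. The part of islet RNA in these values was not tested.

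The machinery that loads and releases granules showed no common direction. Of 36 genes listed 24 were tested, 7 higher and 17 lower (46.4% of all probe sets were lower), with a median of -0.17. Without wild type C 13 were higher and 10 lower, with a median of 0.03. None passed adjustment in limma. Beside 1.82% of all probe sets lower and 1.7% higher at an unadjusted p under 0.05, there was 1 gene in each direction. These were Syt7, a calcium sensor of granule release, at -0.55 (SE 0.20), and Ddc, the decarboxylase that follows TPH1 in serotonin synthesis, at 0.55 (SE 0.22). Ddc, unlike Tph1, was highest in knockout B and C, at 10.44 and 10.54. Without wild type C the values were -0.39 for Syt7 and 0.48 for Ddc. The granule phosphatase-like gene Ptprn2 stood at -0.48 and the calcium-binding Scgn at 0.36. The prohormone convertase gene Pcsk1 (-0.12), the carboxypeptidase gene Cpe (0.03), the amidating enzyme gene Pam (0.07) and Scg3 (0.04) differed by less than their standard errors. These last 4 genes were picked after their values were seen.

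Transcription factors of the lineage pointed in both directions. Of 27 listed, 18 were tested, 12 higher and 6 lower (46.4% of all probe sets were lower), with a median of 0.10. Without wild type C 8 were higher and 9 lower, with a median of -0.0016. In the full set none passed adjustment in limma, and 1 was lower at an unadjusted p under 0.05, where 1.82% of all probe sets were. This was Neurod1, which drives late endocrine differentiation, with 6.75, 6.84 and 6.62 in the arrays labelled knockout and 7.16, 7.03 and 7.99 in wild type. All wild-type arrays lay above, a pattern of 4% of all probe sets. The difference was -0.66 (SE 0.27; limma adjusted p = 0.915, unadjusted 0.0396), or -0.38 without wild type C. Insm1, a repressor active in early endocrine cells, stood at 0.59 (SE 0.27), Pdx1 at 0.56 and Sox4 at 0.56, each with its lowest value in wild type C. Without that array they were 0.38, 0.24 and 0.21. The wild-type mean of Pdx1, 5.05, lay under the filter level, so that it was tested only through the group where it was high. Neurog3, the factor that starts endocrine fate, stood at 0.14 (SE 0.23) and was added after its value was seen.

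Sensors and receptors gave a few values near the threshold. Of 31 nutrient and microbial sensor genes 12 were tested, 9 higher and 3 lower, with none at an unadjusted p under 0.05. The smallest p-values belonged to the glucose carrier gene Slc5a1 (0.38), the short-chain fatty acid receptor gene Olfr78 (0.36), the peptide carrier gene Slc15a1 (-0.85) and the mechanosensitive channel gene Piezo2 (0.36). Without wild type C Slc15a1 stood at -0.53 and Piezo2 at 0.18. Of 28 genes for hormone receptors, hormone breakdown and serotonin uptake 12 were tested, 9 higher and 3 lower. At an unadjusted p under 0.05 there was 1 in each direction, beside 1.82% of all probe sets lower and 1.7% higher. Htr1b, a serotonin receptor gene, read 5.72, 6.10 and 5.78 in the arrays labelled knockout against 6.39, 6.47 and 6.61, a difference of -0.62 (SE 0.20; limma adjusted p = 0.915, unadjusted 0.0133) that was -0.58 without wild type C. Slc6a4, the serotonin transporter gene, read 6.33, 6.72 and 6.86 against 5.56, 6.40 and 5.89, a difference of 0.69 (SE 0.27; limma adjusted p = 0.915, unadjusted 0.0306) that was 0.68 without wild type C. Dpp4, whose product inactivates the Gcg-derived incretin, stood at 0.50, and the serotonin receptor gene Htr4 at 0.71, or 0.25 and 0.22 without wild type C. Glp1r, Cckar, Cckbr, Npy2r and Ntsr1 were below the filter.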

How the data were processed

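The authors deposited 1 linear intensity per probe set and array. The submitters' processing notes name MAS5, with version and scaling target not given in the sources used here. Array medians differed, so log2(signal + 16) was quantile normalized over 45101 probe sets. A filter at the 40th percentile of the mean (a signal of about 18.4) and the removal of 64 control probe sets left 27002. The genotype difference was fitted in limma 3.58.1 (R 4.3.3) by lmFit, then moderated by eBayes under a trended prior (4 residual degrees of freedom, 4.57 from the prior), and p-values were Benjamini-Hochberg adjusted over the whole table. Gene symbols came from the platform annotation. A gene with several probe sets was read by its brightest. Arrays have no count depth; their number, 3 per group, limits the precision. Steps were tested on simulated data.

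The members and gene lists were chosen with earlier results of these data known. All members and Mapk14 were named, with the 5 genes most like Chga. In the lists of hormones, granule genes, transcription factors, sensors and receptors, the up to 4 genes of smallest unadjusted p were also named. The lists of cell types and of position along the gut did not follow that rule, so their genes of smallest p are not all named. Others were picked after their values were seen. Promoters were searched with the exact letters given. Alternatives were other scalings, pseudocounts of 1 and 64, other filters, other ways of summarising probe sets, other variance models, weights per array, a block for the replicate letter, the Gapdh ratio as a covariate, wild type B as sole control, and each array left out.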

Additional observations from a re-analysis of the deposited data

How the results depend on the processing

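With pairs of the same letter the deviations from the group means correlated by -0.07 (A), -0.16 (B) and 0.43 (C), so the letters were not taken to pair samples. With the replicate block 1 probe set was called over the table. An unadjusted p under 0.05 in limma was then reached by 4 members and by 4.73% of all probe sets. Called probe sets over the table, 0 in the reported setting, numbered 1 on deposited signals, 1 centred on array medians, 3 against wild type B alone and 0 to 2 when 1 array was left out. limma's default array weights did not converge and gave wild type A a weight of 36.0. With them 5354 probe sets were called, 4 members (Chga, Chgb, Tph1 and Nts) among them. An unadjusted p under 0.05 was reached by 6 members and by 37.1% of all probe sets. Weights estimated gene by gene, added after seeing the data, gave 74 called and no member. At an unadjusted p under 0.05 they gave 4 members, beside 21.3% of all probe sets. That member count, 2 as reported beside 3.53% of all probe sets, was 1 with median centring, no filter, a filter at the 60th percentile or the Gapdh covariate. In these settings the share of all probe sets was 3.29% to 4.25%. With 1 array left out the member count was 0 to 5 (0 without wild type C, beside 3.06%, and 5 without wild type B, beside 16.1%). The members' median was 0.32 on deposited signals and -0.98 with the 60th percentile filter, which drops Sst, Cck and Scg2. Signs turned with the Gapdh covariate for Chga (0.44), Chgb (0.38), Tph1 (0.34), Gcg (-0.40) and Insl5 (-1.45). That ratio separated the arrays by genotype label, so the fit with it cannot tell RNA quality from the label. Against wild type B alone signs turned for Chgb (0.11), Gcg (-0.48), Insl5 (-0.97) and Tph1 (0.0059). Insl5 also turned with array weights (-0.089, and -0.052 gene by gene) and ranged from -0.55 to 0.81 with 1 array left out. Pyy turned on deposited signals (0.52), with median centring (0.28) and with weights (0.13 and 0.11), and ranged from -0.19 to 0.22. Sst turned on deposited signals (0.13). Nts, Scg2 and Cck kept their direction in all settings run. Beyond what the construction of a setting shows, the cause of these shifts was not tested. Signal over background could not be judged, as no detection calls were used.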
